A study of Mus musculus with 4 samples.

Results

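The UDP glucuronosyltransferases (UGTs) examined here are 10 mouse genes, Ugt1a9, Ugt2a3, Ugt2b1, Ugt2b5, Ugt2b34, Ugt2b35, Ugt2b36, Ugt2b38, Ugt3a1 and Ugt3a2, chosen by name. A probe belonged to a gene when the RefSeq accession that the array gives for it maps to that symbol. By this rule 10 probes measured 9 of the 10 genes, out of 11495 named genes measured on the arrays. Ugt3a2 had 2 probes, the other measured members had 1 each, and no probe matched Ugt2b36, which was not analysed here. All 10 probes were well above background on all 4 arrays in both genotypes.

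Liver cell RNA was compared between HepKO mice (Albumin-Cre/wt, Pnpt1 fl/fl) and WT mice (Pnpt1 fl/fl without Cre), all C57BL/6J. Pnpt1 encodes PNPase, a mitochondrial RNA-processing exonuclease, and the floxed alleles are carried by both genotypes. Albumin-Cre is driven by the albumin promoter, which acts in hepatocytes, so other liver cells are not its target. There was 1 HepKO and 1 WT mouse in a pair labelled male, with a labelled age of 12.29 weeks (12.9 in another label). A pair labelled female, with a labelled age of 4.29 weeks, likewise held 1 HepKO and 1 WT mouse. Each pair was measured on 2 arrays with the dyes exchanged.

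UGTs sit in the endoplasmic reticulum membrane and join a sugar to small lipophilic molecules, which makes them soluble enough to leave in bile or urine. Enzymes of the Ugt1 and Ugt2 families use UDP-glucuronic acid and conjugate bilirubin, steroids, bile acids and many drugs. The human Ugt3 enzymes prefer other UDP-sugars. Liver is a main site of these enzymes, and hepatocyte factors such as HNF4A and the xenobiotic receptors CAR and PXR are known to act on their promoters.

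The promoters of 4 members are shown because these genes stand for the different patterns found on the arrays. Ugt3a1 was lower in HepKO in both pairs, Ugt2a3 differed in size between the pairs, Ugt1a9 had opposite signs in the pairs, and Ugt2b35 lay above WT in both. Each window runs from 250 bases before to 50 bases after the gene's start in RefSeq's annotation of GRCm38.p6, read 5′ to 3′ on the gene's strand, and capitals mark the nuclear receptor core AGGTCA and the letters TATAAA on either strand (TGACCT and TTTATA on the other). Ugt3a1 lies at chr15:9279579-9279878 on the plus strand, Ugt2a3 at chr5:87337146-87337445 on the minus strand, Ugt1a9 at chr1:88070529-88070828 on the plus strand and Ugt2b35 at chr5:87000610-87000909 on the plus strand.
Ugt3a1: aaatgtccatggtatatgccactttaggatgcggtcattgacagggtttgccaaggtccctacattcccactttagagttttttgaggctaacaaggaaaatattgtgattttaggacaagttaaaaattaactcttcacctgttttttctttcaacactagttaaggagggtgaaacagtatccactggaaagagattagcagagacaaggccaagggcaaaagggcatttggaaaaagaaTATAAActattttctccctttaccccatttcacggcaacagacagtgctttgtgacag
Ugt2a3: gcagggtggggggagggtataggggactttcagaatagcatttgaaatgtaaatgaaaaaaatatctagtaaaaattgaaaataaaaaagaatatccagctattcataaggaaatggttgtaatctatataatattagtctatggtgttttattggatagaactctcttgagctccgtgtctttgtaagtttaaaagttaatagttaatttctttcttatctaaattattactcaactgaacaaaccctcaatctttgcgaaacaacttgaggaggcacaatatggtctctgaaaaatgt
Ugt1a9: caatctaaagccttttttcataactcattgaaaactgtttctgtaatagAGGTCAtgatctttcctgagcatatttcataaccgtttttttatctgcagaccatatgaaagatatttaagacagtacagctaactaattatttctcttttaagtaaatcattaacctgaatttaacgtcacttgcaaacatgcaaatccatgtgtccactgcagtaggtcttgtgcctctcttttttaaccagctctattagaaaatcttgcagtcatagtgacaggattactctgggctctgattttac
Ugt2b35: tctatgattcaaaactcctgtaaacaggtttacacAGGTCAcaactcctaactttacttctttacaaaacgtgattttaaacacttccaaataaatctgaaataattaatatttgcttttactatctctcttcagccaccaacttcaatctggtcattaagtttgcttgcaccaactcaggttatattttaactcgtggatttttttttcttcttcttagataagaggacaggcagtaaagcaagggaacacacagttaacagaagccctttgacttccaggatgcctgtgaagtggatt

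Windows of this kind were found for 9 of the 10 members. The nuclear receptor core AGGTCA stood in 5 of 9 (Ugt1a9, Ugt2b5, Ugt2b35, Ugt2b36 and Ugt2b38), against 16.3% of all 32851 promoter windows. The letters TATAAA stood in Ugt3a1 alone among the 9, against 13.6% of all windows. Neither the AHR core GCGTG (32.4% of all windows) nor the antioxidant response core TGACNNNGC (12.4%) was in any of the 9. All motifs were searched on both strands, and none of the 4 windows shown holds both AGGTCA and TATAAA. The window of Ugt2a3 holds neither. Ugt1a9 and Ugt2b35, which share AGGTCA, differ widely in their array values, as given below.

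Before the members, the labels and arrays were checked. On each array 48.2% to 58.6% of probes were well above background in the channel of a genotype. Of the Pnpt1 probes, the brighter had a mean log2 HepKO over WT of -0.10 ± 0.19 (SE, limma adjusted p over probes = 0.747). Its array ratios were 0.31 and 0.058 in the pair labelled male and -0.38 and -0.38 in the pair labelled female. The dimmer gave -0.67, -0.32, -0.50 and -0.60, with a mean of -0.52 ± 0.13 (adjusted p over probes = 0.0800). It is not stated whether either probe lies in the deleted part. Y-chromosome genes (Ddx3y, Eif2s3y, Kdm5d) were above background on 0 of 2 male-labelled arrays and on 2 of 2 female-labelled arrays, in HepKO and WT alike. Xist, the X-inactivation RNA, was above background only on the 2 arrays of the pair labelled male. The sex labels of both pairs are thus opposite to these genes, while HepKO and WT of a pair still matched each other. Whether the age labels are exchanged between the pairs as well was not known. The pairs are called by their labels throughout. Labelled sex, labelled age and slide differ together between the pairs and cannot be told apart.

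Of the 9 measured members 2 fell and 0 rose at an adjusted p below 0.05, where 3.71% of the 11495 genes fell and 12% rose. The 2 were Ugt3a1 and Ugt3a2. The mean log2 ratio of HepKO over WT was below 0 in 6 of 9 members, and their median was -0.87, against 0.083 over all genes. The members' median was -1.52 in the pair labelled male and -0.50 in the pair labelled female, against 0.081 and 0.087 over all genes. In 4 members both HepKO mice lay below both WT mice, a pattern found in 26.8% of all genes, and in 1 member both lay above, against 41.9% of all genes. The RNA is from bulk cell pellets, in which fewer cells of a type and less RNA per cell cannot be told apart.

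**Figure D1:**
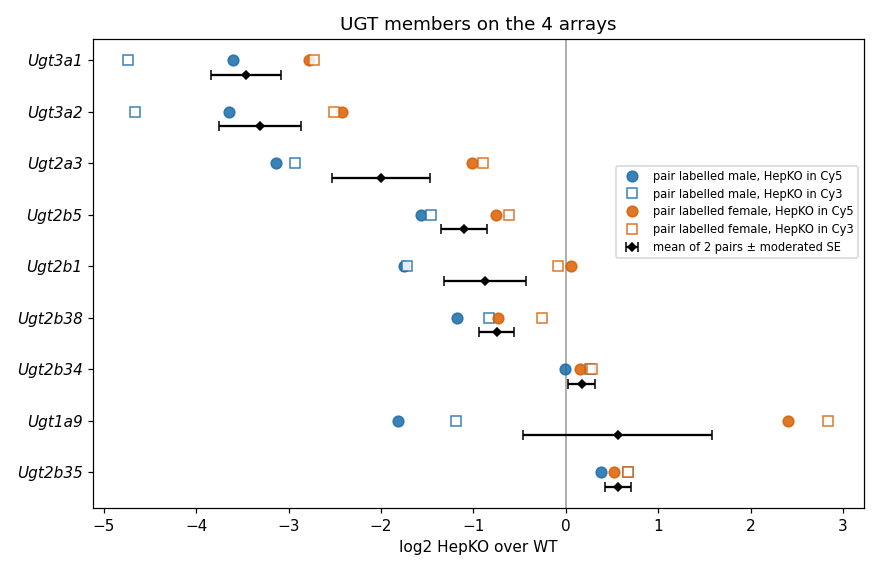
Log2 ratio of HepKO over WT for each of the 9 measured members on each of the 4 arrays, coloured by pair. Ugt3a1 and Ugt3a2 lie far below 0 on all arrays, while Ugt1a9 lies below 0 in the pair labelled male and above 0 in the pair labelled female.

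The Ugt3 enzymes gave the largest differences among the members. In humans UGT3A1 is known to transfer N-acetylglucosamine and UGT3A2 glucose and xylose, in place of glucuronic acid. The log2 intensity of Ugt3a1 was 9.72 and 11.60 in the HepKO mice of the pairs labelled male and female, against 13.89 and 14.36 in their WT partners. Both HepKO mice lay well below both WT mice, and the HepKO mouse of the pair labelled male was the lowest of the 4. On the single arrays the log2 ratio was -3.61 and -4.74 in the pair labelled male and -2.78 and -2.73 in the pair labelled female. The mean was -3.46 ± 0.38 (SE, n = 2 pairs), 11.0-fold lower in HepKO, with a limma adjusted p of 0.0176 and a 95% interval of -4.50 to -2.43. Intervals here and below are not adjusted for the number of genes. This put Ugt3a1 at rank 8 of 11495 genes from the lowest.

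Ugt3a2 followed the same course. Its brighter probe read 10.43 and 12.31 log2 intensity in the HepKO mice, against 14.58 and 14.78 in the WT mice, so the genotypes were far apart here too. The log2 ratio was -3.64 and -4.67 in the pair labelled male and -2.42 and -2.51 in the pair labelled female. Its mean was -3.31 ± 0.44 (limma adjusted p = 0.0233), 9.92-fold lower in HepKO, at rank 11 from the lowest. The dimmer Ugt3a2 probe gave -4.13 and -4.24 in the pair labelled male and -3.13 and -2.67 in the pair labelled female, with a mean of -3.54 ± 0.35. Over the 22807 probes tested, of which 2.99% were lower, all 3 Ugt3 probes were called lower (limma adjusted p over probes 0.0281 for Ugt3a1, 0.0357 and 0.0251 for Ugt3a2). The probes of Ugt3a1 and the brighter of Ugt3a2 differed by 0.17 log2 units on average over the 4 arrays, the closest match among all pairs of members. The 2 genes are near relatives, and how far a probe of one also binds RNA of the other was not tested.

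In both genes the difference was larger in the pair labelled male. Ugt3a1 was 18.0-fold lower in that pair and 6.75-fold lower in the pair labelled female, and Ugt3a2 was 17.8-fold and 5.52-fold lower. With 1 pair of each kind these differences were not tested. Neither gene passed the threshold when the background model was fitted on all spots, outliers included (limma adjusted p = 0.103 for Ugt3a1 and 0.113 for Ugt3a2), or when dim probes were kept (adjusted p = 0.0865 and 0.1005), settings under which 0 genes passed in all.

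**Figure D2:**
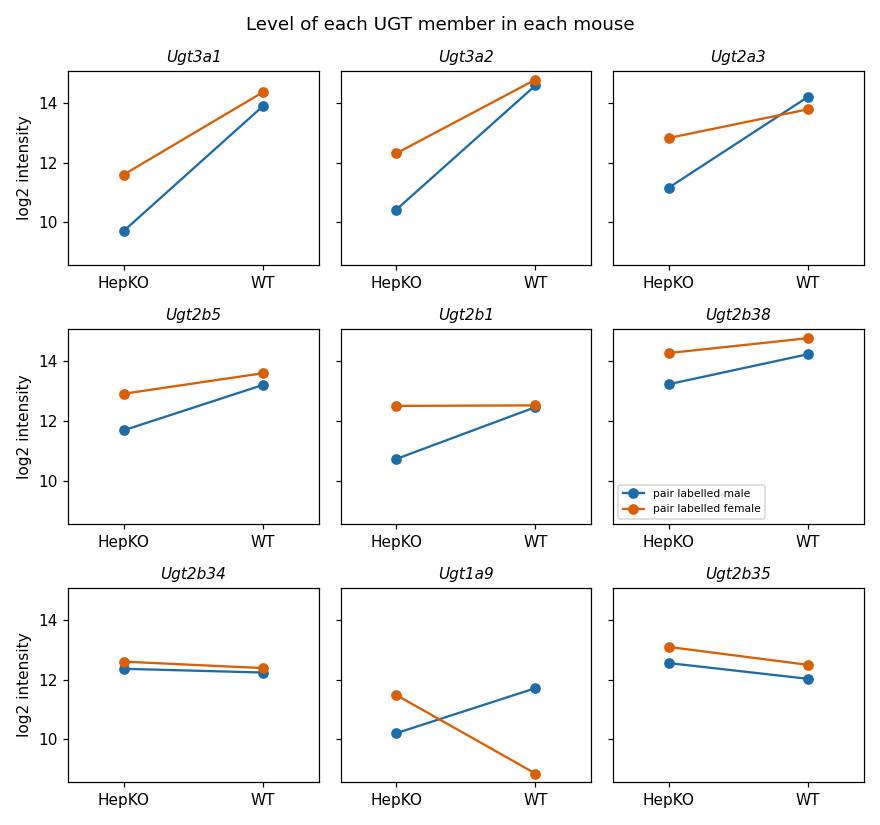
Normalised log2 intensity of each measured member in the 4 mice, HepKO on the left and WT on the right, with a line joining the mice of a pair. The HepKO mice lie below both WT mice for Ugt3a1, Ugt3a2, Ugt2a3 and Ugt2b5, and the lines of Ugt1a9 cross (levels of different probes are not comparable).

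Ugt2a3, whose human counterpart glucuronidates bile acids, had the next largest mean. Its log2 intensity was 11.16 and 12.82 in the HepKO mice, against 14.20 and 13.78 in the WT mice. The genotypes did not overlap, but the gap was much wider in the pair labelled male. The array ratios were -3.14 and -2.93 in the pair labelled male and -1.02 and -0.90 in the pair labelled female, which is 8.20-fold and 1.94-fold lower. The mean of -1.996 ± 0.53 did not pass the test (limma adjusted p = 0.0794, 95% interval -3.45 to -0.54), although it ranked 48 from the lowest of all genes.

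The Ugt2b enzymes take steroids and drugs as substrates in rodents, and their values covered both sides of 0. Ugt2b5 read 11.70 and 12.92 log2 intensity in the HepKO mice, against 13.21 and 13.60 in the WT mice. Its array ratios were -1.57, -1.46, -0.76 and -0.61, and the mean was -1.10 ± 0.25 (limma adjusted p = 0.0585). The genotypes did not overlap, yet the test was missed. Ugt2b38 read 13.23 and 14.28 in the HepKO mice, against 14.24 and 14.77 in the WT mice, which overlapped slightly. Its array ratios of -1.18, -0.83, -0.74 and -0.25 averaged -0.75 ± 0.19 (adjusted p = 0.0716). Both genes thus lay below WT on all 4 arrays without passing the threshold.

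Ugt2b1, known in the rat for conjugating morphine and testosterone, differed between the pairs. Its log2 intensity was 10.74 and 12.51 in the HepKO mice, against 12.47 and 12.53 in the WT mice. Only the HepKO mouse of the pair labelled male stood apart from the other mice. The array ratios were -1.75 and -1.72 in that pair and 0.052 and -0.086 in the pair labelled female. The mean of -0.87 ± 0.45 did not pass the test (limma adjusted p = 0.238, 95% interval -2.10 to 0.35).

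Ugt2b34 and Ugt2b35 were the Ugt2 members with means above 0. Ugt2b34 read 12.36 and 12.60 log2 intensity in the HepKO mice, against 12.24 and 12.39 in the WT mice, and its mean ratio was 0.17 ± 0.14 (limma adjusted p = 0.438, 95% interval -0.22 to 0.56). These mice overlapped, and the interval spans 0. Ugt2b35 read 12.55 and 13.09 in the HepKO mice, against 12.03 and 12.50 in the WT mice. Both HepKO mice lay above both WT mice by a small margin. Its array ratios of 0.38, 0.68, 0.52 and 0.68 averaged 0.56 ± 0.14, 1.48-fold higher in HepKO, and missed the threshold (adjusted p = 0.0720).

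Ugt1a9 had opposite signs in the pairs. Its human counterpart conjugates phenols, propofol among them, and the Ugt1a genes share their later exons while each has a starting exon of its own. Whether the probe of Ugt1a9 lies in its own exon was not known. Its log2 intensity was 10.21 and 11.49 in the HepKO mice, against 11.72 and 8.86 in the WT mice. The HepKO mouse was the lower of the pair labelled male and the higher of the pair labelled female. The array ratios were -1.81 and -1.19 in the pair labelled male, on average 2.84-fold lower, and 2.41 and 2.84 in the pair labelled female, on average 6.17-fold higher. The level of the HepKO mouse of the pair labelled female minus that of the pair labelled male was 1.28 log2 units, against -2.86 between the WT mice. The mean over pairs was 0.56 ± 1.03 (limma adjusted p = 0.724, 95% interval -2.26 to 3.38), so it does not describe either pair.

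**Figure D3:**
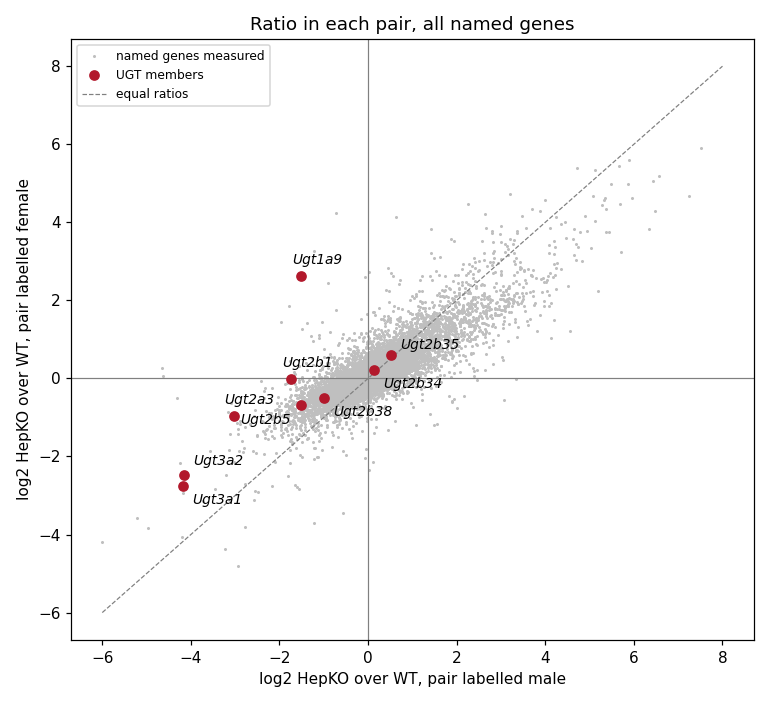
Mean log2 ratio of HepKO over WT in the pair labelled male (horizontal) against that in the pair labelled female (vertical) for the 9 measured members, over all genes in grey. All 9 members lie above the diagonal, and Ugt1a9 lies farthest from it.

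The ratio was lower in the pair labelled male than in the pair labelled female in 9 of 9 members, and in 52.3% of all genes. The pair labelled male minus the pair labelled female gave -2.08 for Ugt2a3, -1.72 for Ugt2b1, -1.69 for Ugt3a2, -1.42 for Ugt3a1, -0.83 for Ugt2b5 and -0.51 for Ugt2b38. It gave -0.09 for Ugt2b34 and -0.07 for Ugt2b35, the members with the least difference between pairs. Over all genes the median size of this gap was 0.243. The pairs are 1 replicate each, so none of these gaps was tested.

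Ugt2 genes stand together on chromosome 5, with 10 Ugt2 genes in a row and 0 other protein-coding genes between them in RefSeq's annotation of GRCm38.p6. The 8 measured ones did not follow their order. Ugt2b34 and Ugt2b35, with means above 0, have Ugt2b1 between them, at -1.73 in the pair labelled male. Beyond Ugt2b36 lie Ugt2b5, Ugt2b37, Ugt2a3, Ugt2b38 and Ugt2a1, all with means below 0. Ugt2b37 (-0.30 ± 0.15) is no member and lies between Ugt2b5 (-1.10) and Ugt2a3 (-1.996).

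**Figure D4:**
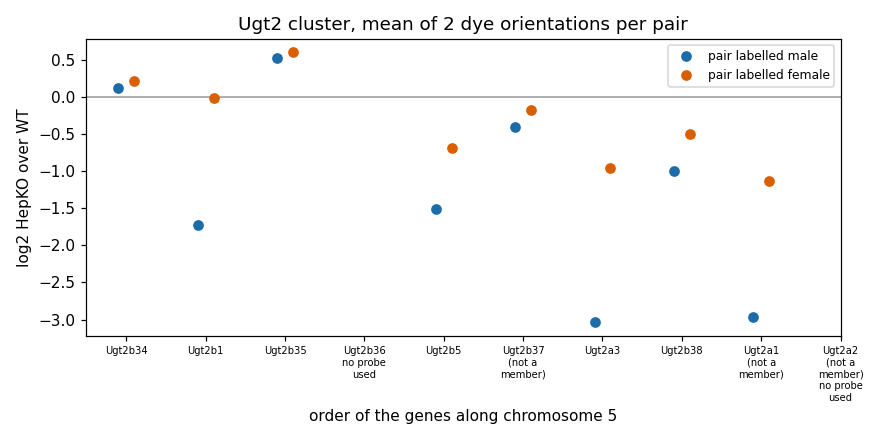
Mean log2 ratio of HepKO over WT in each pair for the Ugt2 genes in their order along chromosome 5. Ugt2a3 and Ugt2a1 are lowest in the pair labelled male, and the measured genes on either side of Ugt2b1 lie above 0 in both pairs.

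Some genes of this row are close relatives. The promoter windows of Ugt2b38 and Ugt2b37 were identical at 86.9% of aligned columns, those of Ugt2b5 and Ugt2b38 at 84.2%, and those of Ugt2b5 and Ugt2b37 at 76.2%. Ugt2b36, which had no probe, shared 59.9% with Ugt2b5. The probes of Ugt2b37 disagreed, with -0.33, -0.49, -0.15 and -0.21 on the brighter and -1.91, -1.74, -0.76 and -0.53 on the dimmer. The dimmer one runs closer to Ugt2b5 than to its own brighter partner. Ugt2b5, Ugt2b37 and Ugt2b38 belong to a family of similar genes, and whether their probes bind each other's RNA was not tested, so these levels are uncertain as to gene.

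Among the other UGT genes and the related folding sensor Uggt1, 5 of 14 were measured, 1 fell and 0 rose. Ugt1a1, the bilirubin-conjugating enzyme, had array ratios of -1.25, -1.25, -1.28 and -0.92 and fell by 1.18 ± 0.15 on the log2 scale (limma adjusted p = 0.0212). Its probe was thus below WT by a similar amount in both pairs, unlike that of Ugt1a9 of the same locus. Whether the Ugt1a probes lie in the shared later exons was not known, so these levels are uncertain as to gene. Ugt1a6b gave -0.81 and -1.03 in the pair labelled male and 0.16 and -0.07 in the pair labelled female on its brighter probe. Its dimmer probe gave -1.005, -0.58, -1.10 and -0.70 and was called lower over probes (-0.84 ± 0.13, adjusted p over probes = 0.0405), so the probes disagree in the pair labelled female. The olfactory enzyme Ugt2a1 gave -3.06, -2.88, -1.35 and -0.93, with a mean of -2.05 ± 0.47 that did not pass (adjusted p = 0.0608). Its pattern is close to that of Ugt2a3.

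The genes around glucuronidation were described by lists chosen by role. In the supply of UDP-glucuronic acid 9 of 10 genes were measured, 0 fell and 1 rose, and the median was 0.091. The gene that rose was Ugdh, the dehydrogenase that makes UDP-glucuronic acid from UDP-glucose. Its array ratios were 1.70, 2.16, 1.31 and 1.41, with a mean of 1.64 ± 0.20 (limma adjusted p = 0.0203). In the list for glucuronic acid use and ascorbate synthesis, 9 of 10 genes were measured, 2 fell and 2 rose, with a median of -0.44. Rgn, the lactonase before the last step of ascorbate synthesis, fell by 2.11 ± 0.43 (adjusted p = 0.0486), and Dcxr, a xylulose reductase, fell by 1.29 ± 0.22 (adjusted p = 0.0345). Akr1a1, which reduces glucuronate, rose by 0.74 ± 0.14 (adjusted p = 0.0428). The other rise in this list was that of Alpl, by 1.58 ± 0.21 (adjusted p = 0.0232). Alpl is a phosphatase not specific to glucuronic acid.

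Transporters of conjugates moved in both directions. Of 9 measured among 10 listed, 3 fell and 1 rose, with a median of -0.64. Slco1a1, an uptake carrier for organic anions, fell by 3.81 ± 0.31 (limma adjusted p = 0.0143). Its log2 intensity was 6.63 and 6.13 in the HepKO mice, low but above background on 4 of 4 arrays, against 9.87 and 10.50 in the WT mice. Abcc6 fell by 1.14 ± 0.23 (adjusted p = 0.0468), and Abcc3, which exports glucuronides across the sinusoidal membrane, fell by 0.84 ± 0.15 (adjusted p = 0.0369). Abcc4, another sinusoidal exporter, rose by 1.99 ± 0.14 (adjusted p = 0.0122). Abcc2, the exporter into bile, had a mean of 0.39 (adjusted p = 0.140).

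Among regulators of UGT genes, 20 of 21 were measured, 2 fell and 1 rose, with a median of 0.096. Nr1i3, which encodes CAR, a receptor known to activate Ugt1a1, fell by 2.15 ± 0.17 (limma adjusted p = 0.0141). Its array ratios were -2.28, -2.44, -1.89 and -1.998, close together in the pairs. Stat5b, which carries growth hormone signals, fell by 0.70 ± 0.14 (adjusted p = 0.0495), at the edge of the threshold. Nfe2l2, the antioxidant response factor NRF2, rose by 1.86 ± 0.26 (adjusted p = 0.0249). Hnf4a had a mean of 0.09 (adjusted p = 0.765) and Nr1i2, which encodes PXR, of 0.47 (adjusted p = 0.115). Neither passed the test.

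Other conjugation enzymes (sulfotransferases, glutathione transferases and methyltransferases) were all measured, 24 of 24, and 4 fell and 4 rose, with a median of -0.15. The sulfotransferases Sult2a8, Sult5a1 and Sult1b1 and the glutathione transferase Gstt1 fell. Gsta1, Gsta2, Gstm2 and Gstm3, all glutathione transferases, rose, by 3.34 ± 0.38 in the case of Gsta1 (limma adjusted p = 0.0187). Near-identical copies exist in the Gsta and Gstm families, so these probes are uncertain as to gene.

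**Figure D5:**
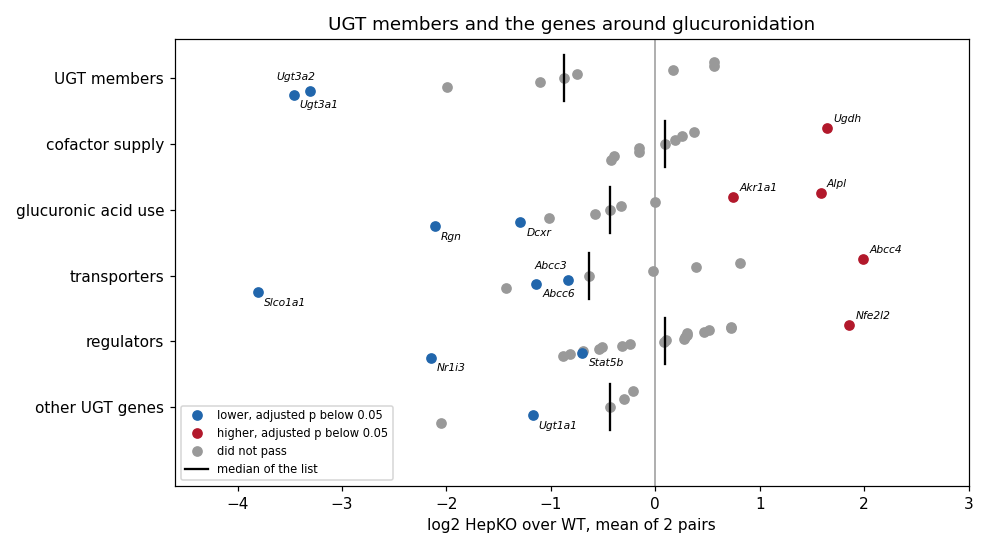
Mean log2 ratio of HepKO over WT for the measured members and the genes of 5 lists around glucuronidation, 1 point per gene with the list median as a bar. Blue points fell and red points rose at an adjusted p below 0.05, and Ugt3a1 and Ugt3a2 are the members that did so.

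Among genes that are no members, those nearest to Ugt3a1 in pattern were found by the mean absolute difference of their log2 ratios over the 4 arrays. They were the glutamate transporter Slc1a2 (0.220), Sult2a8 (0.397), Wfdc21 (0.448), the thyroid hormone deiodinase Dio1 (0.614) and Mup3 (0.702), a major urinary protein of a family of near-identical genes. Slc1a2 had array ratios of -3.88, -4.47, -2.86 and -2.99, and thus shared the larger difference in the pair labelled male. Mup3, at -3.72, -4.67, -3.79 and -4.35, did not. No member rose past the threshold, so no such list was made for a rise.

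Markers of other liver cells differed between the same samples. Macrophage markers had 17 of 20 measured, 14 of which rose, with a median of 1.80, led by Marco (4.26 ± 0.29, limma adjusted p = 0.0118) and Fcgr1 (3.28 ± 0.40, adjusted p = 0.0204). Their summed intensity was 106100 and 101600 in the HepKO mice, against 12070 and 27480 in the WT mice. Sums here and below are weighted to the brightest probes, and levels of different probes are not comparable, so they do not measure cell numbers. Endothelial markers rose in 12 of 18 (median 1.10), lymphocyte markers in 10 of 17 measured (0.99) and stellate and fibroblast markers in 7 of 15 (0.78). The most changed were Cd34 and Lyve1, Ccl5 and Gzmb, and Col3a1 and Col1a2 in these lists. Neutrophil markers rose in 3 of 11 and cholangiocyte markers in 2 of 9, while of 5 erythroid markers 2 rose and 1 fell. The largest means there were those of S100a9 and Mpo (1.77, adjusted p = 0.0857), Spp1 and Bicc1, and Hbb-bt and Hba-a1. Hepatocyte secreted proteins, the defining products of the labelled cells, were bright in every mouse. Of 23 measured, Apoa2 fell by 1.42 ± 0.15 (adjusted p = 0.0166) and Hpx rose by 1.67 ± 0.15 (adjusted p = 0.0152), with a median of -0.19, which was -0.55 in the pair labelled male and 0.096 in the pair labelled female. Their sums were 2094000 and 2360000 in the HepKO mice, against 2327000 and 1979000 in the WT mice, and Alb had a mean ratio of -0.12 ± 0.27. The hepatocyte median thus lay lower in the pair labelled male, as did every measured UGT member, and the part of cell composition in the UGT values was not tested.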

How the data were processed

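RNA of 2 HepKO and 2 WT mice was measured on 4 Agilent arrays with 2 colours. Per the file headers, images were read with Feature Extraction 10.2.1.3. The deposited spot intensity values (mean signal, median local background) were used. The deposited log10 ratio and the authors' value table, also log10, served as alternatives: the table correlated at 1 or -1 with the log ratio over 43379 spots. Further processing was not given in the sources used here.

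In limma 3.58.1 (R 4.3.3), outlier spots (178 to 260 of 45018 per array) were left out, background was corrected with normexp (offset 50), and loess was run within arrays with 1639 control spots at weight 0. Ratios were turned to HepKO over WT, and dye-swapped arrays, which share RNA extracts, were averaged to 1 value per pair. Mouse levels are log2 intensities after Aquantile normalization, averaged over dyes. Probes above background on both arrays of a pair in either genotype were kept (22844 of 41174). Accessions matched to GRCm38.p6 annotation named 22951 probes (55.7%), and each gene took its brightest kept probe. An intercept model on 2 pair values with eBayes (3.12 prior degrees of freedom) was tested, with Benjamini-Hochberg adjustment over 11495 genes, and a threshold of 0.05. Tested on simulated data for this comparison (11495 genes), it called 32 of 100 genes raised by 3 log2 units, 32 of 100 lowered by as much and 0 of 11295 unchanged genes. P-values rest on the spread between 2 pairs, moderated by a prior shared across genes, and the number of pairs limits precision. Promoter identities came from Biopython 1.88 alignments.

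Members and lists were chosen with earlier results of these data known, and so was the step that leaves out outlier spots before the normexp fit, without which 0 genes pass. Named genes were all members, Pnpt1, the sex-check genes, genes past the threshold in the lists around conjugation, the 2 with the largest absolute mean in each cell type list, and the 5 genes nearest to the lowest member. Hnf4a, Nr1i2, Abcc2, Alb, Ugt2a1, Ugt1a6b and Ugt2b37 were named in addition, after their values were seen.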

Additional observations from a re-analysis of the deposited data

Results flagged for a closer look

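Ugt1a9 was singled out because all arrays of one pair lay on the other side of 0 from all arrays of the other. The log2 ratio of HepKO over WT in the pair labelled male minus that in the pair labelled female was -4.13, and 4 of the 11495 genes had a larger gap of either sign. Opposite signs in the pairs on all arrays were found in 8.45% of genes (971). The difference was not tested, since each pair is 1 replicate.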

How the results depend on the processing

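Under the alternatives run, 14 in all and 13 for Ugt1a9 and Ugt2b35, no member's mean changed sign. The values of single list genes were not rerun. Ugt3a1 ranged from -3.75 to -3.18 and Ugt3a2 from -3.57 to -3.05, and both passed the threshold in 12 of 14. They did not pass with the normexp model fitted on all spots (adjusted p 0.103 and 0.113) or with no filter on dim probes (0.0865 and 0.1005), settings under which limma called 0 genes higher, 0 lower, 0 members and 0 pathway genes in either direction, although 3021 and 4638 genes had an unadjusted p below 0.05. In the lists of cofactor supply, glucuronic acid use, transport and regulation 7 genes were lower and 5 higher, Alpl among the latter. Feature Extraction log ratios and the authors' value table each left 3 lower. Leaving out 1 array in turn gave 921 to 1572 genes higher and 204 to 572 lower, 2 to 4 members lower, and 2 to 8 pathway genes lower and 4 to 7 higher. The 204 came without male pair replicate 2, the 2 pathway genes without it or without female pair replicate 1, and the 4 members without female pair replicate 2, where Ugt2b5 (0.0431) and Ugt2b38 (0.0355) passed. With all 4 arrays fitted and the pair as a random block, 2685 genes were higher and 1394 lower, 5 members were lower and 1 higher, and 13 pathway genes were lower and 10 higher. The members that joined were Ugt2a3 (0.0127), Ugt2b5 (0.00697), Ugt2b38 (0.0284) and Ugt2b35 (0.0188). This fit enters the dye-swapped arrays of a pair as separate values, although they share RNA extracts, so its p-values rest in part on technical repeats. Ugt2b5 passed in 4 of 14 alternatives in all, also where only probes well above background throughout were kept (limma adjusted p = 0.0451). Leaving out background population outliers too, an alternative chosen after seeing the data, left Ugt1a9 and Ugt2b35 without a value. The test itself is paired, since each ratio is taken within a pair.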
